A study of Mus musculus with 24 samples.

Results

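Intrahepatic cholangiocytes, the epithelial cells that line the bile ducts inside the liver, were compared between male wild-type (WT) mice given secretin and untreated male WT mice. The comparison rests on 6 of the 24 libraries of the series, chosen by their titles: male WT secretin libraries 1 to 3 and male WT libraries 1 to 3. Untreated mice were killed at 32 weeks of age. Treated mice carried intraperitoneal osmotic minipumps that released secretin for 8 weeks at a daily dose of 4 µg per kg, were given a fresh pump 1 month in, and were killed at 40 weeks of age. No pump is named for the untreated mice, so the effects of secretin, of the pump and of 8 weeks of age cannot be told apart. Each group is a pool of 6 to 8 mice, whose cholangiocytes were pulled out by antibody-coated magnetic beads, and 500 ng of total RNA went into poly(A) libraries in triplicate. The design thus holds 1 pool of mice per group, and p-values do not measure how far mice vary. They rest on the spread among libraries titled as the same group, shared over all male groups. The genotype label of the WT secretin libraries names the dominant-negative TGF-β receptor transgene, whereas their titles and the design text call them WT. The untreated dnTGFB libraries in turn carry a wild-type genotype label. In all, title and genotype label disagree in 12 of the 24 libraries, and the titles were followed. The other 6 male libraries entered the fit to estimate the spread. Of these, 3 are of untreated dnTGFB mice, which carry that transgene and model primary biliary cholangitis, and whose age is not given. The other 3 are of dnTGFB mice given secretin at the same dose for 8 weeks. These mice also had a fresh pump 1 month in and were 40 weeks old.

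Secretin is a peptide hormone that the small intestine releases when acid arrives from the stomach. In the liver its receptor is found mainly on cholangiocytes, where it raises cyclic AMP and activates protein kinase A. The chloride channel CFTR then opens, the anion exchanger AE2 trades chloride for bicarbonate, and water follows through aquaporins, which makes bile more alkaline and more dilute. Cholangiocytes also answer interferons and other inflammatory signals by making chemokines that draw T cells and other leukocytes to the bile ducts.

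Total counts were 20582062 to 30203330 in the WT libraries and 16890529 to 22168639 in the WT secretin libraries. WT library 1 stood apart: 42.8% of its counts came from mitochondrially encoded genes, against 9.73% and 9.75% in WT libraries 2 and 3 and 19.4% to 19.5% in the secretin libraries. With each library thinned to 1000000 counts, the chi-square per gene, which is about 1 for repeat sequencing of 1 sample, was 30.5 and 30.6 between WT library 1 and WT libraries 2 and 3. It was 1.11 between WT libraries 2 and 3, 1.20 to 1.44 among the secretin libraries, and 11.5 to 11.6 between WT libraries 2 and 3 and the secretin libraries. WT library 1 was nearer to dnTGFB libraries 1 and 2, at 6.08 and 5.78, than to its own group, and WT libraries 2 and 3 were at 6.74 to 6.89 from the dnTGFB secretin libraries. Whether libraries were exchanged between groups was not tested, and each difference given here holds for the libraries as titled. Secretin library 1 held heart muscle transcripts, with a summed level of 16 marker genes of 1158 CPM of the library total against 50.8 and 55.6 in secretin libraries 2 and 3. The 3 WT libraries held 861, 1133 and 957 CPM of the same genes. DnTGFB library 3 was shallow, with 1429218 counts, and lay at 59.5 and 59.7 from dnTGFB libraries 1 and 2. The distances of this library and of WT library 1 from their groups widened the spread that all comparisons share. The labelled cell type was checked by its markers: Krt7, Krt19, Epcam, Sox9, Cftr and Sctr had counts in all 6 libraries, and the summed level of 26 biliary genes was 2976, 7106 and 7143 CPM in WT and 4966, 5024 and 5021 CPM with secretin. Other liver cells were present as well. The 19 endothelial genes summed to 7240, 13740 and 13820 CPM in WT and to 10240 to 10310 CPM with secretin, and 30 hepatocyte genes to 17790, 6005 and 5912 CPM in WT and 23810, 24170 and 24970 CPM with secretin. In these bulk samples fewer cells of a type and less RNA per cell cannot be told apart.

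Of 18777 genes tested with edgeR's quasi-likelihood test, 666 were higher with secretin (3.55% of those tested) and 502 were lower (2.67%) at a Benjamini-Hochberg adjusted p under 0.05. These shares are the background for the counts of called list members given below. The change was at least 2-fold in 516 of the higher and 287 of the lower genes. Without WT library 1, 667 of 19420 genes were higher (3.43%) and 407 lower (2.1%), and 465 of the 666 and 345 of the 502 genes were called again. Without both WT library 1 and dnTGFB library 3, the same test (n = 19176 genes) called 3811 higher genes (19.9%) and 3956 lower genes (20.6%). With the 6 compared libraries alone (n = 17416 genes) it called 2324 higher and 2604 lower genes. The fits given below that left out 1 of the 6 libraries kept dnTGFB library 3 in the shared spread. The 3 secretin libraries all lay above the 3 WT libraries in 4127 of the tested genes (22%) and all below in 4025 (21.4%). All 666 higher and all 502 lower genes were among them, so the absence of overlap adds no support to a call. When counts were scaled by library totals alone, the split moved to 653 higher and 210 lower genes, 75.7% higher against 57.0% with TMM scaling, and the median log2 fold change of all genes moved from 0.00 to 0.19. Of the 666 higher genes, 474 were higher in the 3 secretin libraries than in all 9 other male libraries, dnTGFB included. Of the 502 lower genes, 191 were lower in the secretin libraries than in those 9, and 150 were higher in the 3 WT libraries than in all 9 others. Every called gene already separated the secretin from the WT libraries, and the share of all tested genes with these patterns was not counted. Levels are TMM-scaled counts per 1000000 (CPM), differences are log2 fold changes of secretin minus WT with an approximate standard error (SE) over n = 3 libraries per group, and all adjusted p-values are from edgeR over all tested genes unless another source is named.

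**Figure D1:**
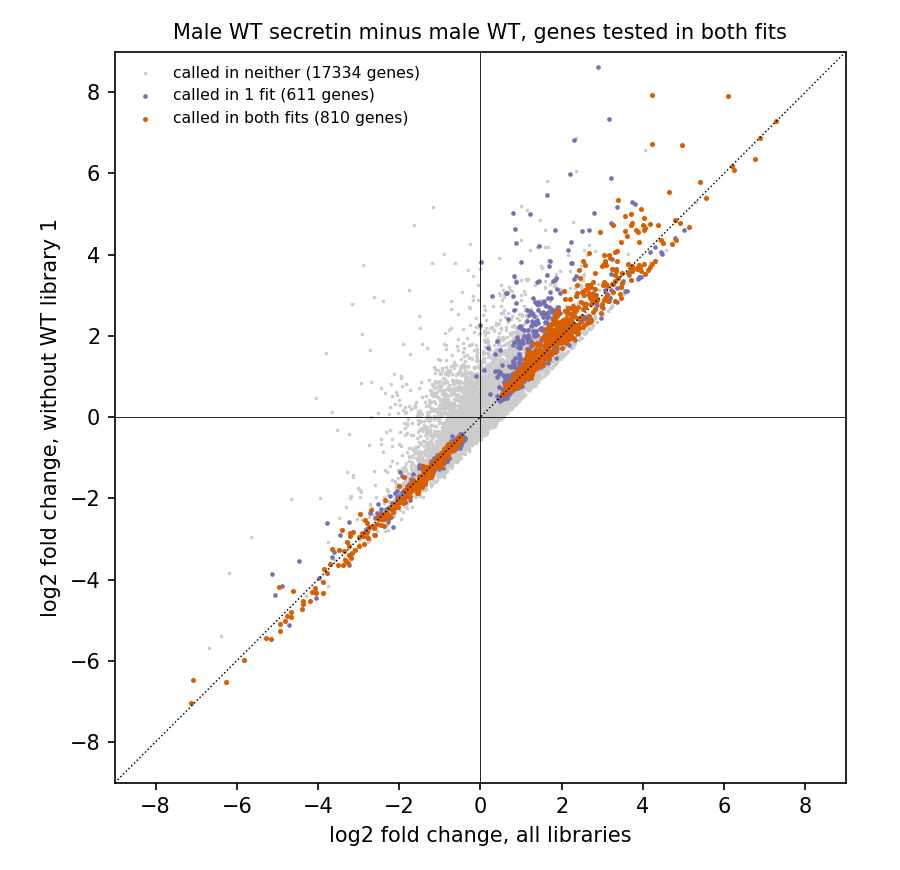
Log2 fold change of male WT secretin minus male WT with all libraries (horizontal axis) and without WT library 1 (vertical axis), 1 point per gene tested in both fits. All 810 genes called in both fits, drawn in orange, lie on the same side of 0 in both, while 611 genes were called in 1 of these fits (purple).

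The ligands of the chemokine receptor CXCR3 fell together. Cxcl9, Cxcl10 and Cxcl11, which interferon induces and which attract activated T cells and NK cells, were lower in all 3 secretin libraries than in all 3 WT libraries. Cxcl10 and Ifit1 were among the 12 largest decreases of the whole comparison. The promoters of 4 of the interferon-responsive genes that fell are printed here as the DNA next to which interferon-activated factors act, each from 250 bases before to 50 bases after the RefSeq start (GRCm38.p6) and on the strand of the gene. Capitals mark the core of the interferon-stimulated response element, searched on both strands as GAAA and GAAA separated by 2 bases of any kind, where matches may overlap.
Cxcl9, chr5:92328030-92328329, minus strand: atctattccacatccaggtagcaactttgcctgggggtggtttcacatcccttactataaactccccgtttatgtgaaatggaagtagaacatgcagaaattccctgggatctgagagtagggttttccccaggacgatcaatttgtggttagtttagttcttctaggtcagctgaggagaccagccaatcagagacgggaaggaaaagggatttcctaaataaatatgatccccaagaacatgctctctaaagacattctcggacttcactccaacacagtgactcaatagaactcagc
Cxcl10, chr5:92348840-92349139, minus strand: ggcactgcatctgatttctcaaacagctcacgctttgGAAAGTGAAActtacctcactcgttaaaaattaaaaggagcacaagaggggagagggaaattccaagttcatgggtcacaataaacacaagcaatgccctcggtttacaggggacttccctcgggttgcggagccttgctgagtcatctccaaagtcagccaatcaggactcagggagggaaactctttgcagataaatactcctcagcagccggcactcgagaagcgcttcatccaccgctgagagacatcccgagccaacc
Ifit1, chr19:34640639-34640938, plus strand: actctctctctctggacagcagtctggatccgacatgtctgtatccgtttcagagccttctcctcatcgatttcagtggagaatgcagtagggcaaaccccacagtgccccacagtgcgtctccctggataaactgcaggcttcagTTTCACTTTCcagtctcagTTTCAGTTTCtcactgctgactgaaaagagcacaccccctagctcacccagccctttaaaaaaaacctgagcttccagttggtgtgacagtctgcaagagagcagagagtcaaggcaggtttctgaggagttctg
Isg15, chr4:156200769-156201068, minus strand: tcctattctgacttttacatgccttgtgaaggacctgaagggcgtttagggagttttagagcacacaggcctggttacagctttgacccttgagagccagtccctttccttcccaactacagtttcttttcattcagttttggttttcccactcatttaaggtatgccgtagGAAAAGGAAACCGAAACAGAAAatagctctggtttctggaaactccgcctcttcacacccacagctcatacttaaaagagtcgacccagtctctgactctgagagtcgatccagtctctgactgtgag
The core was found 1 time in the Cxcl10 window, 2 times in that of Ifit1 and 3 times in that of Isg15, and these letters were not in the Cxcl9 window. The same core was in 1131 of 32851 RefSeq promoters of 300 bases (3.44%). The gamma interferon activated site, searched as TTC and GAA separated by 3 bases of any kind, was in none of the 4 windows and in 8.30% of all promoters. A match is a description of the sequence and not of binding. The RefSeq promoter table had no entry for Cxcl11 or Mx2.

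WT libraries held 1348, 1583 and 1564 CPM of Cxcl10, and secretin libraries 110, 105 and 114 CPM. The groups did not overlap, as in every called gene. The lowest WT library held more than 10 times the level of the highest secretin library. Cxcl10 fell by 3.77 ± 0.51 (log2 ± SE, 13.7-fold, adjusted p = 0.00241), and by 3.84 without WT library 1 (adjusted p = 0.00616). Cxcl11 was at 11.4, 7.62 and 7.70 CPM in WT and at 0.873, 0.540 and 0.945 CPM with secretin, again without overlap, and fell by 3.49 ± 0.47 (adjusted p = 0.00232). Cxcl9 was at 311, 260 and 258 CPM in WT and at 52.1, 51.1 and 48.4 CPM with secretin, 5.47-fold lower (adjusted p = 0.0321). The calls of Cxcl10 and Cxcl11 held without any 1 of the 6 libraries, with adjusted p of at most 0.0228, whereas that of Cxcl9 was lost without each of them (0.0662 without WT library 1, up to 0.135). With the 6 compared libraries alone the adjusted p of Cxcl9 was 2.3e-07 in edgeR. In the other male libraries Cxcl10 reached 1050, 1083 and 200 CPM (dnTGFB) and 1653, 1620 and 1603 CPM (dnTGFB secretin), so its level in WT secretin was below all 9 other male libraries.

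Other targets of interferon fell with the chemokines, though most members of the lists did not pass the test. Of 33 type I interferon response genes 8 fell and none rose, with a median log2 fold change of -0.41 against 0.00 for all genes. Mx2, a dynamin-like antiviral GTPase, was at 97.5, 77.9 and 81.2 CPM in WT and at 7.30, 4.17 and 8.14 CPM with secretin. Ifit1, which binds viral RNA caps, was at 138, 87.3 and 83.5 CPM against 11.1, 10.7 and 11.8 CPM, and Isg15, a ubiquitin-like modifier, was at 183, 199 and 199 CPM against 25.1, 24.9 and 28.9 CPM. None of these 3 genes overlapped between the groups. They fell by 3.71 ± 0.63, 3.20 ± 0.54 and 2.88 ± 0.50 (adjusted p = 0.00777, 0.00761 and 0.00805) and stayed called without WT library 1 (0.0179, 0.0194 and 0.0173). Without secretin library 2 the adjusted p of Mx2, Ifit1 and Isg15 was 0.054, 0.052 and 0.0542, and Isg15 also lost its call without secretin library 1. The other 5 genes that fell were Rsad2, Ifit2, Ifit3, its close copy Ifit3b, and Cmpk2, by 2.07 to 0.79 on the log2 scale, and each of these calls was lost in every fit that left out 1 library. In those fits 0 to 3 members of the list were called. EdgeR on the 6 compared libraries alone called all 5 lower and, in the whole list, 20 genes lower and 1 higher. Of the 8 genes that fell, 7 were in the promoter table and 5 of these had the element core, as had 14 of the 24 list members in that table and 3.99% of all genes in it.

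Among 27 genes of the interferon gamma response 4 fell and 1 rose, with a median log2 fold change of -0.73. Without WT library 1 the median was -0.41, and 2 fell and none rose. Irf1, the transcription factor at the head of this response, was at 2146, 2428 and 2464 CPM in WT and at 435, 427 and 437 CPM with secretin, 5.42-fold lower without overlap (adjusted p = 0.0228, 0.0432 without WT library 1). Socs1, the feedback inhibitor of JAK kinases, was at 127, 149 and 160 CPM in WT and 24.3, 26.6 and 32.4 CPM with secretin, and fell by 2.39 ± 0.47 (adjusted p = 0.0149). The immunity-related GTPases Irgm1 and Iigp1 fell by 1.86 ± 0.42 and 2.11 ± 0.54 (adjusted p = 0.0251 and 0.0424). Ciita, the master activator of MHC class II genes, went the other way, from 7.23, 12.7 and 10.4 CPM to 25.1, 28.8 and 30.4 CPM (log2 1.48 ± 0.33, adjusted p = 0.0239). In the fits with 1 library left out 0 to 2 members were called lower. The calls of Irf1 and Socs1 were lost without any 1 library other than WT library 1 (adjusted p up to 0.109 and 0.082), and those of Irgm1, Iigp1 and Ciita without each of the 6 (up to 0.115, 0.163 and 0.0994). EdgeR on the 6 compared libraries alone called each of them, at an adjusted p from 6.9e-08 (Irf1) to 0.00056 (Iigp1). Of 10 MHC class II pathway genes 1 rose and 1 fell, at a median log2 fold change of 0.77 with 7 positive. Their summed level was 1175, 2350 and 2385 CPM of the library total in WT and 3661, 3735 and 3738 CPM with secretin. With the 6 compared libraries alone edgeR called 7 higher and 2 lower. Ctss, the cathepsin that trims the invariant chain, rose by 1.14 ± 0.18 (adjusted p = 0.00556), in every fit with 1 library left out. H2-DMb2, a peptide-loading chaperone that B cells also express, fell by 1.23 ± 0.30 (adjusted p = 0.0353, up to 0.148 with 1 library left out). Neither the 14 MHC class I presentation genes nor the 10 interferon ligands and receptors had a called member in edgeR with all libraries. At an unadjusted p under 0.05 there were 0 and 2 of them, the 2 being lower, and DESeq2 called 0 and 1, limma-voom 0 and 0. With the 6 compared libraries alone edgeR called 3 higher and 6 lower in the first list, and 2 higher and 4 lower in the second.

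**Figure D2:**
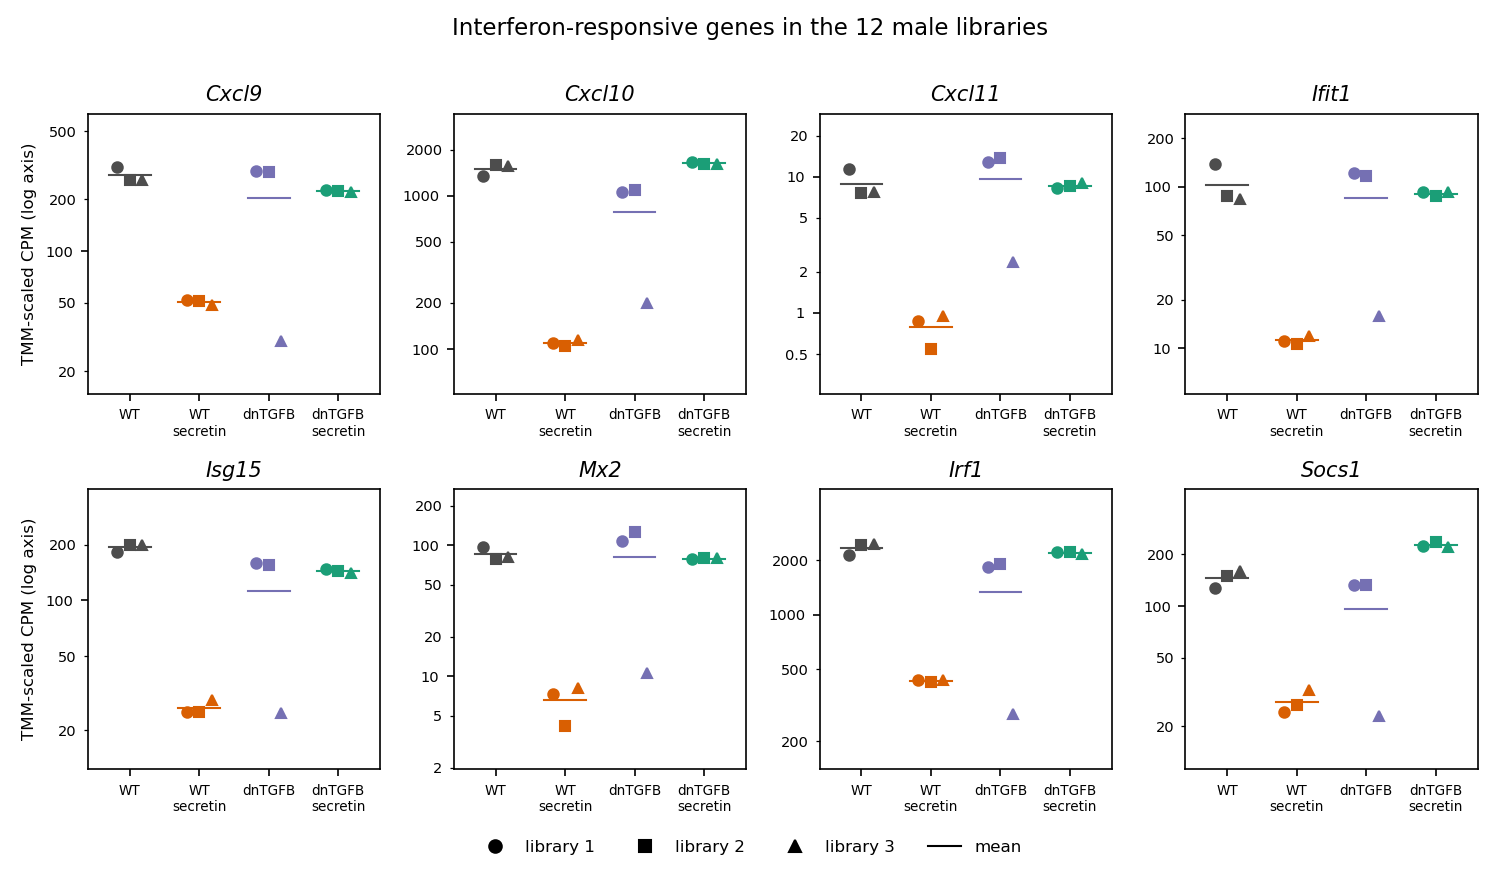
TMM-scaled CPM (log axis) of 8 interferon-responsive genes in the 12 male libraries, with 1 point per library and a line at the group mean. The 3 WT secretin libraries lie below all WT and dnTGFB secretin libraries in each panel, and dnTGFB library 3 (triangle) lies far below dnTGFB libraries 1 and 2.

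Inflammatory signalling genes were called in both directions, though most had a negative log2 fold change. Of 27 tested 3 fell and 2 rose, beside 2.67% and 3.55% of all tested genes. Their median log2 fold change was -1.01, and 7 were positive. Without WT library 1 the median was -0.73, with 3 higher and 1 lower. With the 6 compared libraries alone edgeR called 13 lower and 1 higher. The 28 listed genes summed to 6765, 7906 and 7920 CPM of the library total in WT. With secretin they summed to 3244, 3325 and 3305 CPM. Il1a, the cytokine interleukin 1 alpha, was at 282, 275 and 281 CPM in WT and at 38.4, 38.4 and 40.8 CPM with secretin, and fell by 2.83 ± 0.65 (adjusted p = 0.028). Vcam1, an adhesion receptor for leukocytes, fell by 2.17 ± 0.54 (adjusted p = 0.0393), and Csf3, the granulocyte growth factor, by 2.55 ± 0.46 (adjusted p = 0.00967). In the opposite direction, Osm, a cytokine of the interleukin 6 family, was at 5.72, 3.45 and 3.75 CPM in WT and at 20.1, 18.8 and 19.1 CPM with secretin, 4.48-fold higher (adjusted p = 0.00223). The acute phase gene Saa3 was at 11.5, 0.937 and 6.93 CPM in WT and at 54.5, 70.6 and 53.1 CPM with secretin, so that its WT libraries differed among themselves by more than 10-fold (log2 3.20 ± 0.69, adjusted p = 0.0219). The call of Osm held without any 1 library. Csf3 lost its call without secretin library 1 or 2 (adjusted p up to 0.0625), Saa3 without WT library 3 or any secretin library (up to 0.0933), and Il1a and Vcam1 without each library (up to 0.126 and 0.153). With the 6 compared libraries alone edgeR gave an adjusted p of 3.2e-08 for Il1a and 1.4e-07 for Vcam1. In that fit Saa3 was not called (0.0603).

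Of 24 immediate-early genes, the transcription factor genes Fosl1 and Nr4a3 fell and Egr3 rose (log2 1.44 ± 0.35, adjusted p = 0.033, kept only without WT library 1). Among all tested genes 2.67% fell and 3.55% rose, and the median of this list was -0.53. Fosl1 was at 37.0, 36.2 and 40.3 CPM in WT and at 8.09, 6.63 and 5.35 CPM with secretin, and Nr4a3 at 85.0, 49.9 and 51.3 CPM against 12.4, 12.7 and 11.7 CPM. Both fell, by 2.496 ± 0.34 and 2.34 ± 0.37 (adjusted p = 0.00234 and 0.00537), in every fit with 1 library left out. Rnd1, 1 of the 12 largest decreases, was at 258, 240 and 241 CPM in WT and at 30.6, 33.5 and 28.7 CPM with secretin (log2 -2.99 ± 0.54, adjusted p = 0.00966, and 0.058 at most without 1 of the secretin libraries). Cdkn1a, which encodes the cell cycle inhibitor p21 and is a marker of senescence, was at 302, 272 and 287 CPM in WT and at 76.6, 78.0 and 79.9 CPM with secretin. The groups did not overlap, and Cdkn1a fell by 1.88 ± 0.44 (adjusted p = 0.0309). This call was lost without any 1 of the 6 libraries, with adjusted p of 0.0638 without WT library 1 and 0.128 at most. With the 6 compared libraries alone edgeR gave Cdkn1a an adjusted p of 2.3e-07. Sesn2, a stress-responsive p53 target, was the other of 20 senescence and p53 genes to fall, by 1.10 ± 0.28 (adjusted p = 0.0391, up to 0.165 with 1 library left out). None of 27 cell cycle genes was called by edgeR with all libraries, whereas 12 were lower and 0 higher with the 6 compared libraries alone. Their median log2 fold change was -0.48, 8 were lower and 0 higher at an unadjusted p under 0.05, and DESeq2 and limma-voom each called 5 as lower.

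Heat shock genes, which encode chaperones for misfolded proteins, fell: 8 of 14 were called lower and none higher, and the median log2 fold change was -0.96. Hspa1a was at 1225, 1816 and 1845 CPM in WT and at 186, 194 and 191 CPM with secretin, and its near-identical neighbour Hspa1b at 1654, 2441 and 2497 CPM against 227, 227 and 253 CPM, with reads that the counting may have divided between them. They fell by 3.10 ± 0.67 and 3.22 ± 0.68 (adjusted p = 0.0215 and 0.0201). Hsph1 and Bag3, a nucleotide exchange factor and a co-chaperone of these proteins, fell by 1.97 ± 0.22 and 2.30 ± 0.32 (adjusted p = 0.000895 and 0.00272). Hsph1, Bag3 and the mitochondrial co-chaperonin Hspe1 kept their calls without any 1 library, whereas Hspa1a and Hspa1b kept theirs only without WT library 1 (adjusted p up to 0.101 and 0.0998), and the list had 3 to 7 called members in those fits and 5 with library totals. The heat shock element, searched as GAA, TTC and GAA, each separated by 2 bases of any kind, was in the promoters of 3 of the 11 members in the RefSeq table and in 0.662% of all genes there. Of 7 members in that table that fell, Hsph1 and Hspe1 held it, and these letters were not in the windows of Hspa1a and Hspa1b. Of 20 unfolded protein response genes 4 rose and none fell: Sdf2l1, at 25.2, 22.4 and 22.4 CPM in WT and 58.8, 57.5 and 60.2 CPM with secretin (log2 1.33 ± 0.13, adjusted p = 0.00043), and Creld2, Pdia6 and Sel1l, by 0.95, 0.83 and 0.59. The call of Sdf2l1 held without any 1 library, Sel1l kept its call only without WT library 1, and Creld2 and Pdia6 lost theirs without each library.

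Genes of cholesterol synthesis fell in part, 8 of 24 with none higher and a median log2 fold change of -0.53. Hmgcs1, an early enzyme of the pathway, was at 260, 208 and 206 CPM in WT and at 90.0, 89.8 and 87.2 CPM with secretin. Hmgcs1 and Pmvk, the phosphomevalonate kinase, fell by 1.34 ± 0.19 and 0.87 ± 0.12 (adjusted p = 0.00274 and 0.00283), and both calls held without any 1 library. Without WT library 1 the number of called members was 3, and 2 to 3 were called in each fit with 1 library left out. With counts scaled by library totals alone 3 members were called.

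Genes of the hormone's own axis were called in both directions. Of 35 genes of secretin signalling and of the ion and water transport it drives, 2 rose and 2 fell, and the median log2 fold change was 0.11, or 0.03 without WT library 1. Over all tested genes 3.55% rose and 2.67% fell. Sct, the gene of secretin itself, was at 0.281, 0.468 and 0.322 CPM in WT and at 0.198, 0.294 and 0.262 CPM with secretin, with overlapping groups and a log2 fold change of -0.51 ± 0.51 (adjusted p = 0.643). Sctr, the receptor, was at 4.22, 0.639 and 0.886 CPM in WT and at 5.04, 6.82 and 3.99 CPM with secretin. WT library 1 lay within the range of the secretin libraries and WT libraries 2 and 3 lay below it. Sctr had a log2 fold change of 1.47 ± 0.56 that was not called (adjusted p = 0.156), and rose by 2.78 without WT library 1 (adjusted p = 0.00143). In the dnTGFB secretin libraries Sctr was at 12.8, 13.2 and 11.3 CPM and in dnTGFB at 1.73, 2.13 and 1.76 CPM.

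The effectors of bicarbonate secretion did not pass the test with all libraries, and their calls depended on the fit. Cftr, the chloride channel, was at 6.05, 3.36 and 3.79 CPM in WT and at 7.89, 7.61 and 6.35 CPM with secretin. Slc4a2, which encodes AE2, was at 36.0, 40.5 and 42.8 CPM in WT and at 58.6, 56.8 and 60.2 CPM with secretin. Both genes were higher in each secretin library than in each WT library, with log2 fold changes of 0.73 ± 0.42 (adjusted p = 0.356) and 0.56 ± 0.16 (adjusted p = 0.0731). Aqp1, the water channel, was at 1895, 2396 and 2428 CPM in WT and at 1456, 1433 and 1452 CPM with secretin, lower without overlap and not called (log2 -0.63 ± 0.45, adjusted p = 0.476). Slc4a2 was called higher by DESeq2 (adjusted p = 0.000109), by limma-voom (0.016), with the stricter low-count filter (0.0427) and with the 6 WT libraries alone (0.000978), but in no edgeR fit that left out 1 library (0.163 to 0.225). With the 6 libraries alone Aqp1 was called lower (0.000738) and Cftr was not called (0.0569). Without both WT library 1 and dnTGFB library 3 all 3 genes were called, Cftr at an adjusted p of 5.4e-05. Of the called members, Crem, a cyclic AMP-responsive transcription factor gene, was at 53.7, 58.0 and 56.2 CPM in WT and at 21.1, 25.5 and 26.4 CPM with secretin, and fell by 1.20 ± 0.19 (adjusted p = 0.00543), a call that held without any 1 library. Adcy7, an adenylyl cyclase, was at 21.2, 11.03 and 10.03 CPM in WT and at 43.9, 41.7 and 39.5 CPM with secretin, and rose by 1.57 ± 0.34 (adjusted p = 0.0207). Car4, a membrane-bound carbonic anhydrase, was at 12.7, 17.7 and 16.4 CPM in WT and at 4.28, 6.04 and 4.36 CPM with secretin (log2 -1.67 ± 0.39, adjusted p = 0.0307). Slc9a3, the sodium-proton exchanger NHE3, rose by 1.68 ± 0.44 from levels under 1 CPM (adjusted p = 0.0491). Adcy7 and Car4 kept their calls only without WT library 1 (adjusted p up to 0.104 and 0.134 without another library), and Slc9a3 lost its call without each library (up to 0.178).

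**Figure D3:**
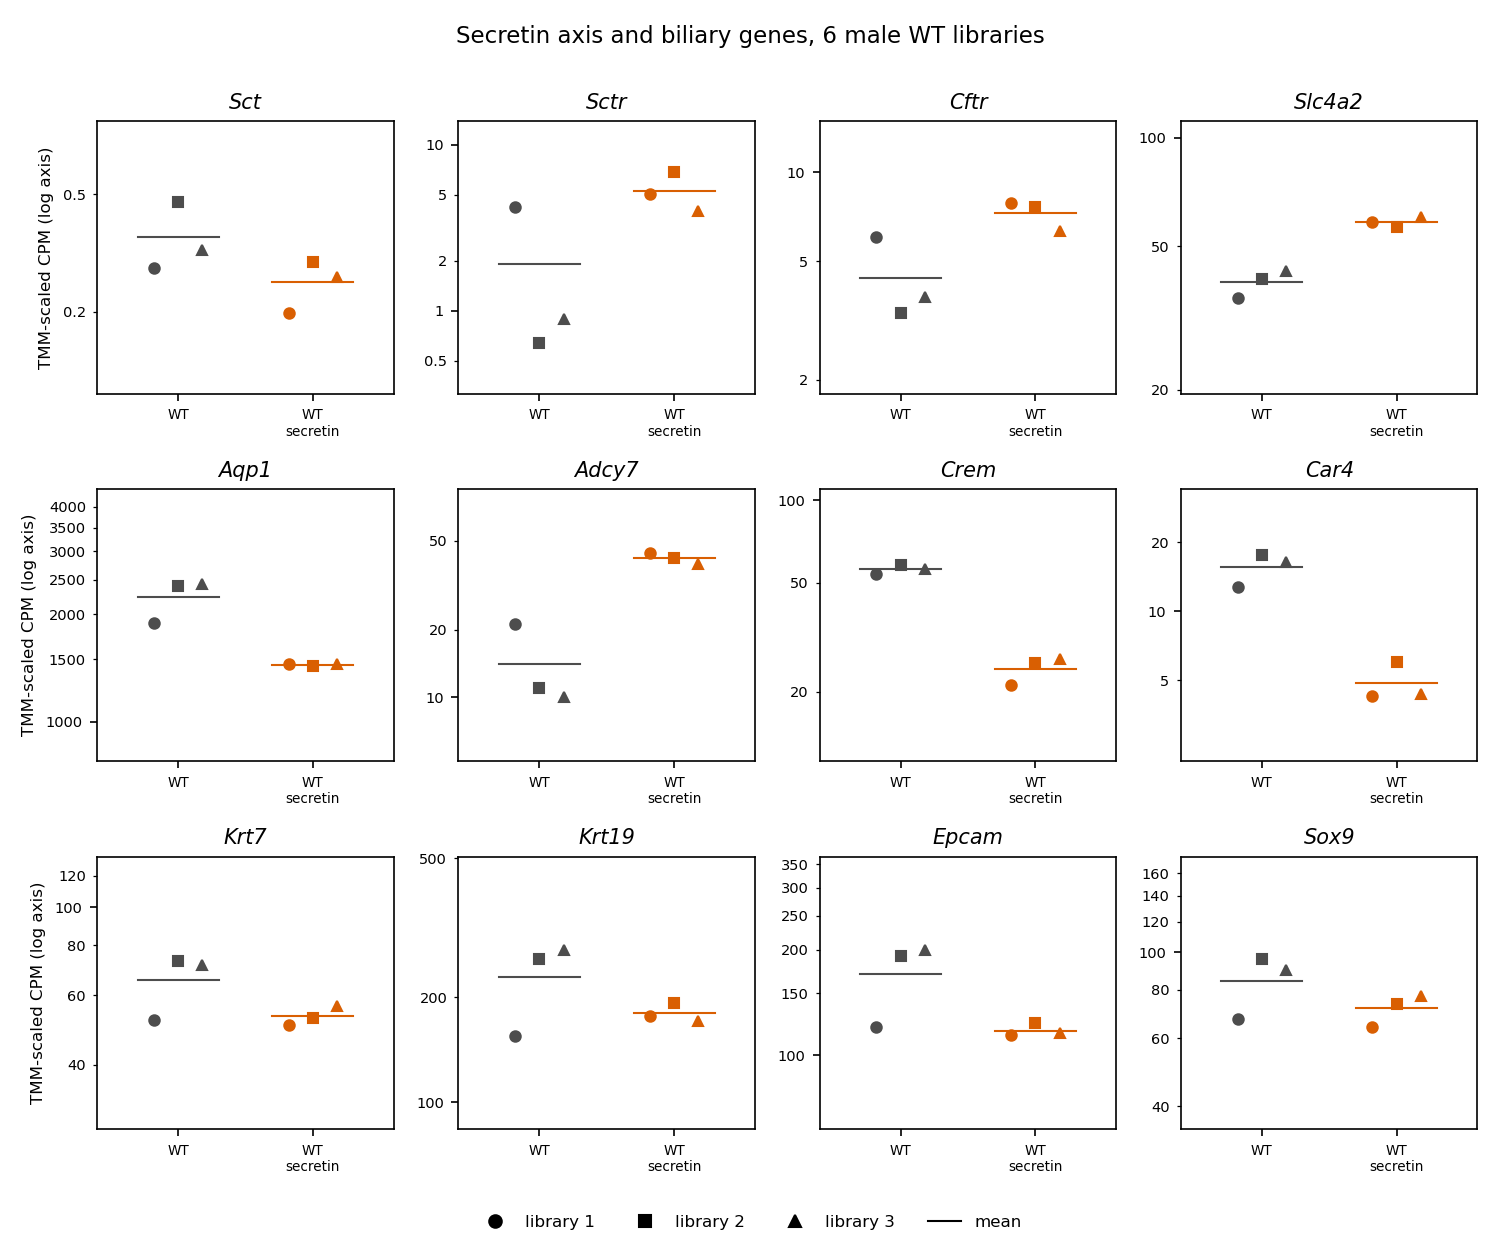
TMM-scaled CPM (log axis) of 8 genes of the secretin axis and 4 biliary markers in the 6 male WT libraries, with 1 point per library and a line at the group mean. Sctr of WT library 1 (circle) lies among the secretin libraries, Slc4a2 is higher in all 3 secretin libraries, and Krt7, Krt19, Epcam and Sox9 overlap between the groups.

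Most biliary identity genes did not pass the test, which called 3.55% of all tested genes higher and 2.67% lower. Of 26, 2 rose and 2 fell, and the median log2 fold change was -0.13, which became 0.01 with library totals. Without WT library 1 the median was -0.30, and 2 rose and 3 fell, and without dnTGFB library 3 as well 6 rose and 16 fell. The keratin genes Krt7 and Krt19, the adhesion molecule Epcam and the duct transcription factor Sox9 had log2 fold changes of -0.30 ± 0.25, -0.35 ± 0.28, -0.53 ± 0.23 and -0.24 ± 0.20 (adjusted p of 0.558, 0.532, 0.215 and 0.555). In each of the 4, WT library 1 lay near the secretin libraries and WT libraries 2 and 3 above them. Krt19, for example, was at 155, 258 and 273 CPM in WT and at 177, 192 and 171 CPM with secretin. Cldn4, a tight junction claudin, fell more than any other member, from 184, 280 and 285 CPM to 30.0, 33.3 and 31.3 CPM without overlap (log2 -2.98 ± 0.37, adjusted p = 0.00137), a call that held without any 1 library. Elf3, an epithelial transcription factor, fell by 1.30 ± 0.27 (adjusted p = 0.0178), and the transcription factor genes Onecut1 and Sox4 rose by 2.36 ± 0.55 and 0.77 ± 0.15 (adjusted p = 0.0291 and 0.0119). Elf3 and Onecut1 kept their calls only without WT library 1 (up to 0.0887 and 0.127 otherwise), and Sox4 lost its call without WT library 3, secretin library 1 or secretin library 3 (up to 0.0691).

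Some epithelial junction, cilium and defence genes were called, beside 3.55% higher and 2.67% lower of all tested genes. Cgn, which encodes the junction protein cingulin, and Cldn8 rose by 1.47 ± 0.32 and 1.01 ± 0.26 among 20 tight junction and polarity genes (adjusted p = 0.0207 and 0.0411), and the intraflagellar transport gene Ift172 rose by 0.50 ± 0.12 among 23 genes of the primary cilium (adjusted p = 0.032). These 3 calls were lost without each of the 6 libraries (adjusted p up to 0.0912, 0.151 and 0.124). Of 18 mucosal defence genes, the macrophage lysozyme gene Lyz2 rose by 2.00 ± 0.18 (adjusted p = 0.000301), in every fit with 1 library left out. The protease inhibitor gene Slpi rose by 0.83 ± 0.22 and the trefoil peptide gene Tff2 fell by 0.63 ± 0.15 (adjusted p = 0.049 and 0.032), with both calls kept only without WT library 1 (up to 0.198 and 0.149 otherwise). None of 9 bile acid transport and sensing genes or 19 Notch and YAP genes was called by edgeR with all libraries. At an unadjusted p under 0.05 there were 1 higher and 0 lower in the first list and 4 higher and 3 lower in the second. DESeq2 called 1 and 4 of them and limma-voom 1 and 3. With the 6 compared libraries alone edgeR called 2 higher and 0 lower in the first list, and 6 higher and 5 lower in the second.

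Matrix genes rose as a group. Of 33 extracellular matrix genes 14 rose and none fell, the median log2 fold change was 1.28 against 0.00 for all genes, and 12 rose without WT library 1. Col1a1, a chain of type I collagen, was at 128, 71.2 and 69.2 CPM in WT and at 498, 495 and 500 CPM with secretin, 5.56-fold higher (adjusted p = 0.0162). Mmp2, the gelatinase A gene, was at 33.4, 13.2 and 13.1 CPM against 113, 110 and 113 CPM, and Col15a1, a basement membrane collagen, at 11.6, 10.9 and 8.70 CPM against 48.6, 45.2 and 45.2 CPM. Mmp2 and Col15a1 rose by 2.49 ± 0.39 and 2.15 ± 0.20 (adjusted p = 0.00527 and 0.000302) in every fit with 1 library left out, whereas Col1a1 and Col1a2 kept their calls only without WT library 1 (adjusted p up to 0.0865 and 0.124). The number of called members ranged from 2 to 12 over these fits. Fndc1, a fibronectin type III domain gene outside the list and among the 12 largest increases, was at 8.02, 4.56 and 5.68 CPM in WT and at 60.0, 62.1 and 63.3 CPM with secretin (log2 3.34 ± 0.30, adjusted p = 0.000301).

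Markers of cells that surround ducts and line the liver surface moved with the matrix genes. Of 10 mesothelial markers 7 rose and none fell, with a median log2 fold change of 2.52, and their summed level was 96.4, 84.5 and 71.2 CPM in WT and 168, 177 and 186 CPM with secretin. Wt1, the mesothelial transcription factor gene, was at 4.13, 1.62 and 1.81 CPM in WT and at 13.9, 14.5 and 16.9 CPM with secretin, without overlap. Lrrn4, Rspo1, Wt1 and Upk1b rose by 4.38 ± 0.64, 2.81 ± 0.48, 2.58 ± 0.37 and 2.55 ± 0.45 (adjusted p = 0.00322, 0.00784, 0.00312 and 0.00921), and these calls held without any 1 library. Of 21 stellate cell and fibroblast markers 4 rose and 1 fell. Mfap5, a microfibril gene of portal fibroblasts, was at 0.891, 0.554 and 1.01 CPM in WT and at 9.32, 7.66 and 10.8 CPM with secretin, and rose by 3.49 ± 0.41 (adjusted p = 0.0011). Pi16 and the PDGF receptor gene Pdgfra rose by 2.03 ± 0.33 and 1.44 ± 0.28 (adjusted p = 0.00647 and 0.0144), Cd34 by 0.71 ± 0.12 (adjusted p = 0.00841), and the pericyte gene Rgs5 fell by 0.59 ± 0.13 (adjusted p = 0.0234). Mfap5 and Pi16 held without any 1 library, Cd34 was lost without WT library 2 (adjusted p = 0.0628), and Pdgfra and Rgs5 were kept only without WT library 1 (up to 0.0759 and 0.136). The part of a different cell mixture in the rise of the matrix genes was not tested.

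TGF-β family genes that rose, beside 3.55% of all tested genes, were mostly of the latent complex that stores the ligand in matrix. Of 25 genes 5 rose and none fell, at a median log2 fold change of 0.07 (0.01 without WT library 1): Ltbp2, Ltbp3 and Ltbp1, which encode latent TGF-β binding proteins, by 1.77 ± 0.43, 1.26 ± 0.22 and 0.73 ± 0.16 (adjusted p = 0.0345, 0.00921 and 0.0216), the ligand Tgfb3 by 0.98 ± 0.22 (0.0234) and Bmp4 by 1.09 ± 0.28 (0.0469). Ltbp3 lost its call without WT library 2 or secretin library 2 (adjusted p up to 0.0532), Ltbp1, Ltbp2 and Tgfb3 kept theirs only without WT library 1 (up to 0.106, 0.151 and 0.116), and Bmp4 lost it without each library (up to 0.182). Tgfbr2, the receptor whose dominant-negative form the transgene carries, was at 130, 138 and 138 CPM in WT and at 168, 172 and 167 CPM with secretin, higher without overlap and not called (log2 0.32 ± 0.33, adjusted p = 0.647). In dnTGFB it was at 123, 126 and 37.0 CPM and in dnTGFB secretin at 108, 109 and 119 CPM. The sources do not say whether these counts include transgene reads. Among 14 angiogenic factors, Angptl4 rose by 1.59 ± 0.23 (adjusted p = 0.00305) in every fit with 1 library left out, Fgf2 and Pdgfc rose by 1.71 ± 0.32 and 0.92 ± 0.18 (adjusted p = 0.011 and 0.0131), and Pdgfa fell by 0.58 ± 0.15 (adjusted p = 0.0452). Fgf2 lost its call without WT library 2, WT library 3 or secretin library 2 (up to 0.0601), Pdgfc without any secretin library (up to 0.0618), and Pdgfa without each library (up to 0.183).

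**Figure D4:**
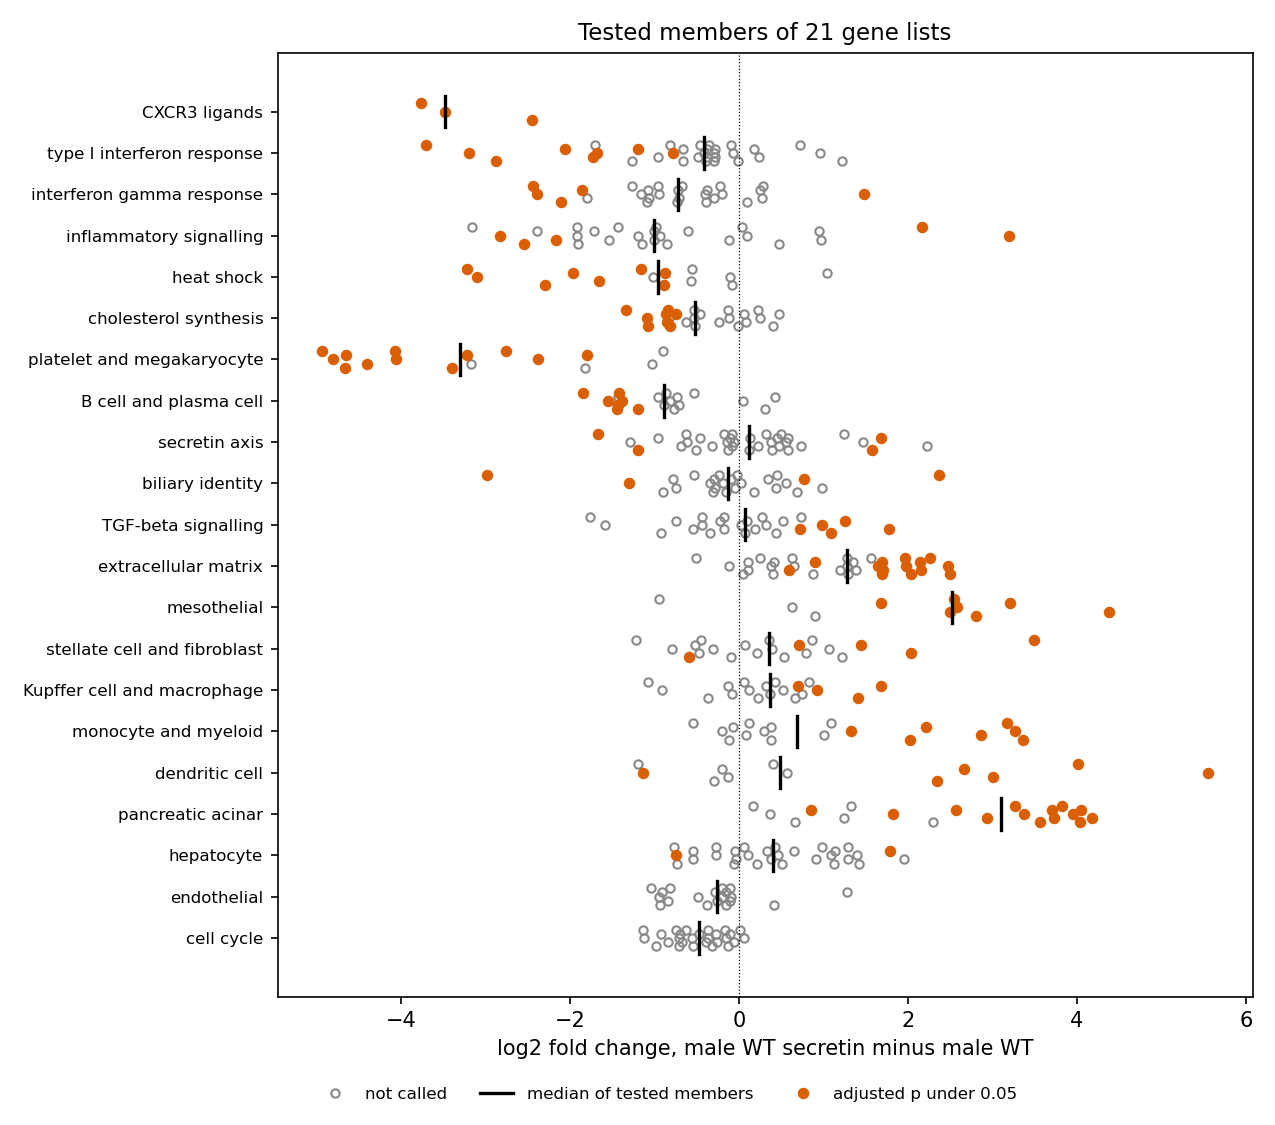
Log2 fold change of male WT secretin minus male WT for the tested members of 21 gene lists, with called genes (adjusted p under 0.05) filled, other genes open, and the list median as a black bar. The medians run from -3.49 for the CXCR3 ligands and -3.31 for platelet genes to 2.52 for mesothelial and 3.10 for pancreatic acinar genes.

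Monocyte and myeloid genes rose, and dendritic cell genes moved in both directions. Of 18 monocyte and myeloid genes 7 rose and none fell, both with all libraries and without WT library 1, and 7 were called in every fit with 1 library left out. Ccr2, the receptor that brings monocytes into tissue, was at 5.40, 1.83 and 2.98 CPM in WT and at 36.3, 33.5 and 35.1 CPM with secretin, 10.3-fold higher (adjusted p = 0.00049). Gpnmb and Lyz1, macrophage genes, rose by 3.17 ± 0.51 and 3.27 ± 0.57 (adjusted p = 0.0058 and 0.00819), and Cx3cr1, the fractalkine receptor, by 2.87 ± 0.33 (adjusted p = 0.00102). Of 12 dendritic cell genes 5 rose and 1, the actin bundler Fscn1, fell, by 1.14 ± 0.21 (adjusted p = 0.011, up to 0.063 with 1 library left out). A positive log2 fold change was seen in 7 of the 12. Without both WT library 1 and dnTGFB library 3, 7 were called higher and 4 lower. Their summed level was 244.5, 503 and 495 CPM of the library total in WT and 424, 411 and 411 CPM with secretin. Cd209a, a lectin of monocyte-derived dendritic cells, was at 0.281, 0.511 and 0.363 CPM in WT and at 18.0, 16.9 and 20.4 CPM with secretin, with no other male library above 1.70 CPM. It rose 47.0-fold (log2 5.55 ± 0.37, adjusted p = 6.95e-05). Clec10a, another lectin of dendritic cells and macrophages, was at 0.563, 0.937 and 2.10 CPM against 14.8, 16.9 and 16.0 CPM (log2 3.71 ± 0.52, adjusted p = 0.00276). Siglech of plasmacytoid cells, the integrin gene Itgax and Xcr1 of cross-presenting cells rose by 4.01 ± 0.70, 3.01 ± 0.42 and 2.66 ± 0.46 (adjusted p = 0.00889, 0.00274 and 0.00795). Of these named increases only that of Siglech lost its call in a fit with 1 library left out, at 0.0532 without WT library 2.

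Of 19 Kupffer cell and macrophage genes 4 rose: Fcgr1, an IgG receptor, and Csf1r, the receptor for macrophage growth factor, by 1.68 ± 0.29 and 1.41 ± 0.16 (adjusted p = 0.00852 and 0.00102) in every fit with 1 library left out, and Cd163 and the complement gene C1qb by 0.92 ± 0.17 and 0.70 ± 0.17 (adjusted p = 0.0108 and 0.0357). Cd163 lost its call without WT library 3 or any secretin library (up to 0.0551) and C1qb without each library (up to 0.151). Of 27 other chemokines Cxcl13, which attracts B cells, and Ccl6, a myeloid chemokine, rose by 1.32 ± 0.21 and 1.47 ± 0.33 (adjusted p = 0.00535 and 0.0252), the first in every fit with 1 library left out and the second only without WT library 1 otherwise (up to 0.124). Mmp9, a gelatinase of neutrophils and macrophages, was the single called gene of 16 neutrophil genes and rose by 2.83 ± 0.42 (adjusted p = 0.00369), with and without each library. Only 4 of the 16 had a positive log2 fold change, and the list median was -1.10, or 1.24 without WT library 1. Beside the counts in these lists, 3.55% of all tested genes were called higher.

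Of 19 B cell genes 7 fell, with none higher and a median log2 fold change of -0.89, and 9 fell without WT library 1. The 19 genes summed to 488, 1106 and 1112 CPM of the library total in WT and 783, 797 and 795 CPM with secretin. WT library 1 thus lay below the secretin libraries. Cd79a, the signalling chain of the B cell receptor, was at 51.2, 95.2 and 97.1 CPM in WT and at 22.6, 23.1 and 21.8 CPM with secretin (log2 -1.85 ± 0.38, adjusted p = 0.0167). Cd79b and Blk fell by 1.55 ± 0.28 and 1.45 ± 0.30 (adjusted p = 0.00959 and 0.0191). None of the 7 calls held in every fit with 1 library left out, 0 to 9 members were called in those fits, and 1 was called as lower with library totals. Cd4 was the single called gene of 21 T cell genes, beside 3.55% of all tested genes called higher. It rose by 1.81 ± 0.45 (adjusted p = 0.0391, kept only without WT library 1). Of 14 NK and cytotoxic cell genes, the transcription factor gene Eomes and the receptor gene Klrd1 rose by 2.73 ± 0.50 and 2.66 ± 0.65 (adjusted p = 0.0104 and 0.0345), Eomes in every fit with 1 library left out and Klrd1 only without WT library 1 otherwise (up to 0.136). The mast cell protease genes Tpsb2 and Mcpt4 rose from 0.282 CPM or less to 1.10 to 1.94 CPM (adjusted p = 0.0459 and 0.0392), calls that were lost without each library.

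Platelet genes made up 6 of the 12 largest decreases. Of 16 platelet and megakaryocyte genes 12 fell and none rose, and the median log2 fold change was -3.31. All 16 were lower in each secretin library than in each WT library, as were 21.4% of all tested genes. Ppbp, a platelet granule chemokine, was at 60.0, 100 and 106 CPM in WT and at 2.22, 2.45 and 4.83 CPM with secretin, 28.1-fold lower (adjusted p = 0.000282). Tubb1, the platelet tubulin, was at 6.19, 15.7 and 17.0 CPM in WT and at 0.397, 0.589 and 0.262 CPM with secretin, and fell by 4.94 ± 0.57 (adjusted p = 0.0011). Treml1, Gp9, Gp1bb and Itga2b, all platelet surface proteins, fell by 4.66 ± 0.54, 4.66 ± 0.53, 3.39 ± 0.48 and 3.22 ± 0.35 (adjusted p = 0.0011, 0.00101, 0.00274 and 0.000845). These 6 calls held without any 1 library, and 10 to 12 of the 16 genes were called in each of those fits. In the other male groups, dnTGFB libraries held 8.31, 4.45 and 2.94 CPM of Ppbp and dnTGFB secretin libraries 2.59, 1.66 and 1.58 CPM. The summed level of the 16 genes, in CPM of the library total, was 553, 975 and 989 in WT and 265, 253 and 264 with secretin. It spanned 134 to 330 over the dnTGFB libraries, and the dnTGFB secretin libraries, at 764 to 792, lay within the WT range. The 7 erythroid genes tested gave no call in edgeR with all libraries (0 higher and 4 lower at an unadjusted p under 0.05, 0 by DESeq2 and 2 lower by limma-voom). With the 6 compared libraries alone edgeR called 1 lower. Their summed levels were 223, 517 and 509 CPM in WT and 190, 60.4 and 50.6 CPM with secretin.

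Genes of pancreatic acinar cells, which make digestive enzymes, had the highest median log2 fold change of the lists, 3.10, and 4.59 without WT library 1. Of 20 genes tested 14 rose and none fell, and 16 of 21 rose without WT library 1. Cpb1, a carboxypeptidase, was at 1.36, 0.724 and 0.363 CPM in WT and at 15.4, 14.1 and 14.6 CPM with secretin, 18.1-fold higher (adjusted p = 0.000389). Cela2a, an elastase, was at 3.10, 0.596 and 0.685 CPM against 22.7, 23.01 and 21.5 CPM, and the lipase gene Pnlip at 4.41, 0.468 and 0.403 CPM against 18.8, 15.7 and 19.7 CPM. Cela3b, Rnase1, Cela2a, Prss2 and Cpa1 rose by 4.05 ± 0.41, 4.04 ± 0.60, 3.95 ± 0.52, 3.73 ± 0.54 and 3.57 ± 0.47 (adjusted p = 0.000537, 0.00370, 0.00214, 0.00322 and 0.00214), and with Cpb1 these calls held without any 1 library. Cel and Pnlip rose by 3.71 ± 0.81 and 3.38 ± 0.71 (adjusted p = 0.0224 and 0.0194). Cel lost its call without WT library 3 or any secretin library (adjusted p up to 0.107), and Pnlip kept its call only without WT library 1 (up to 0.0728). The number of called members was 7 to 16 over the fits with 1 library left out. Prss2 belongs to a family of near-identical trypsinogens, so its count is uncertain. Summed over 25 acinar genes the level was 66.2, 86.2 and 94.6 CPM of the library total in WT and 261, 266 and 264 CPM with secretin, and it was 51.8 to 77.0 CPM in dnTGFB and 632 to 660 CPM in dnTGFB secretin. No count of Amy2a5 or Cela3a was found in the 6 libraries. Whether RNA of pancreatic cells took part was not tested. Calca, which encodes calcitonin and the neuropeptide CGRP, was at 0.422, 0.0852 and 0 CPM in WT and at 12.3, 9.96 and 12.1 CPM with secretin (log2 6.09 ± 0.80, adjusted p = 0.00206), with no other male library above 0.692 CPM.

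**Figure D5:**
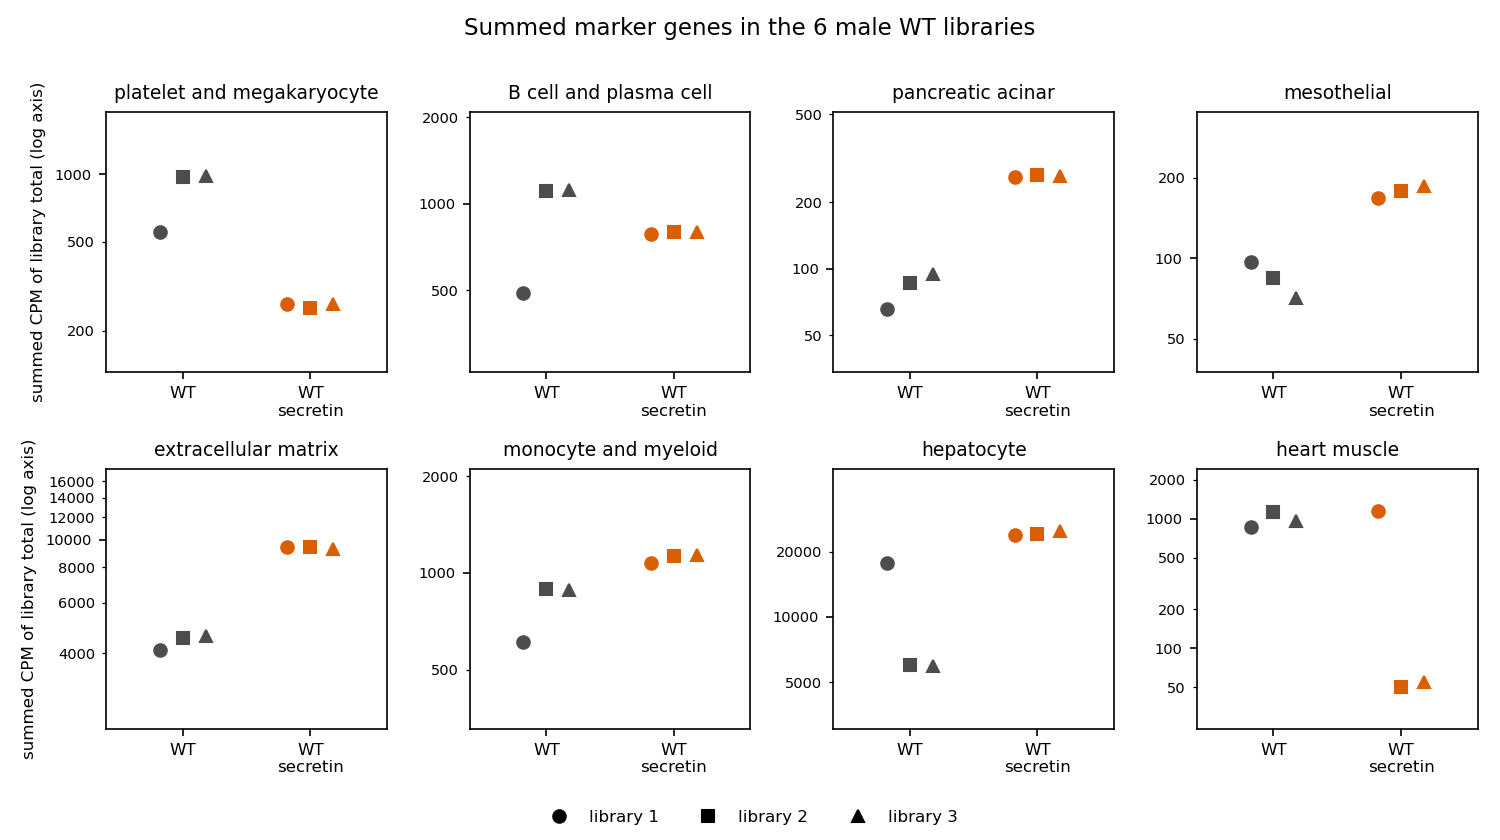
Summed level of 8 marker lists in each male WT library, in CPM of the library total on log axes. Platelet sums were lower and acinar, mesothelial and matrix sums higher in all 3 secretin libraries, WT library 1 lay between or beyond the groups for B cell and hepatocyte genes, and heart muscle genes were high in secretin library 1 and in all WT libraries.

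The summed level of hepatocyte genes was higher in each secretin library than in each WT library, and few of these genes were called with all libraries. Of 30 genes 1 rose and 1 fell, at a median log2 fold change of 0.40, beside 3.55% higher and 2.67% lower of all tested genes. Without WT library 1, whose sum lay nearer to the secretin libraries than those of WT libraries 2 and 3, 4 rose and none fell at a median of 1.17, and without dnTGFB library 3 as well 25 rose and 2 fell. Mup3, a major urinary protein, was at 223, 252 and 232 CPM in WT and at 799, 800 and 849 CPM with secretin (log2 1.79 ± 0.18, adjusted p = 0.000507). Glul, the glutamine synthetase of cells around the central vein, was at 575, 587 and 595 CPM against 345, 340 and 361 CPM, and fell by 0.75 ± 0.18 (adjusted p = 0.0307, up to 0.153 with 1 library left out). Cyp8b1, the sterol hydroxylase that makes cholic acid, was 1 of 2 called among 19 genes of hepatocyte bile acid synthesis and export, at 5.77, 4.94 and 5.92 CPM in WT and 21.4, 18.3 and 22.8 CPM with secretin (log2 1.91 ± 0.31, adjusted p = 0.00625). The other, the uptake transporter gene Slco1a1, rose by 1.24 ± 0.30 (adjusted p = 0.0347) and lost its call without each library (up to 0.136). The calls of Mup3 and Cyp8b1 held without any 1 library.

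Among genes that differ between the sexes, some female-biased and some male-biased genes rose. A1bg, a liver gene that females express more, showed the largest increase that the rule for naming genes gave, from 0.0938, 0.0852 and 0.201 CPM in WT to 6.86, 11.1 and 12.8 CPM with secretin (log2 6.25 ± 0.74, adjusted p = 0.0011). Xist, the RNA that silences an X chromosome in female cells, was at 0.891, 1.02 and 1.45 CPM in WT and at 35.1, 37.4 and 30.1 CPM with secretin (log2 4.92 ± 0.61, adjusted p = 0.00137). Ddx3y, a gene of the Y chromosome, was at 119, 87.3 and 89.8 CPM in WT and at 68.3, 72.1 and 69.4 CPM with secretin, lower without overlap and not called (log2 -0.50 ± 0.23, adjusted p = 0.245). The secretin libraries thus held RNA of Xist, which goes against their male label, together with Y-linked RNA, and the WT libraries held Y-linked RNA with Xist at 1.45 CPM or less. Of the other female-biased hepatocyte genes, Cyp2a4 rose by 1.91 ± 0.47 and Cux2 fell by 0.68 ± 0.17 (adjusted p = 0.0354 and 0.0386). Among 12 male-biased hepatocyte genes 3 rose: Mup20 from 102, 130 and 138 CPM to 548, 561 and 558 CPM (log2 2.17 ± 0.23, adjusted p = 0.000624), Slco1a1 and Cyp2d9, the last by 0.87 ± 0.21 (adjusted p = 0.0328). A1bg, Xist and Mup20 held without any 1 library, Cyp2a4 was kept only without WT library 1 (up to 0.142), and Cux2 and Cyp2d9 were lost without each (up to 0.181 and 0.133). A part of Xist-expressing cells in the other changes of this comparison was not tested.

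The squamous epithelial genes Sprr1a and Ivl, which encode cornified envelope proteins, fell among 17 tested. Sprr1a was at 26.2, 34.2 and 35.9 CPM in WT and at 0.952, 1.23 and 1.37 CPM with secretin, 27.3-fold lower (adjusted p = 0.000288), and Ivl was at 2.02, 2.26 and 3.34 CPM against 0.198, 0.196 and 0 CPM. Both calls held without any 1 library. The lipase gene Pnpla2 was the single call among 10 adipocyte genes (log2 -0.56 ± 0.13, adjusted p = 0.0256), and Rpl27 the single call among 34 ribosomal protein genes (log2 -0.63 ± 0.15, adjusted p = 0.0347). Both were kept only without WT library 1 (up to 0.143 and 0.162). For comparison, 2.67% of all tested genes were called lower. The median of the ribosomal protein genes was -0.50, and 30 were lower at an unadjusted p under 0.05. All 34 had a negative log2 fold change and no overlap between the groups, against 21.4% of all tested genes lower without overlap.

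No gene of the endothelial (19), neuronal (16), heart muscle (16), nuclear-encoded respiratory chain (29), mitochondrially encoded (13) or glycolysis (18) lists was called by edgeR with all libraries. At an unadjusted p under 0.05 the endothelial list had 1 higher and 1 lower gene and the glycolysis list 2 lower genes, and the other 4 lists had 0. DESeq2 called 2 glycolysis genes and limma-voom 1, both lower, and neither tool called a member of the other 5 lists. Heart muscle genes were spread widely within the secretin group, and mitochondrially encoded genes within the WT group. A call of 1 mitochondrially encoded gene as higher appeared without WT library 1. With the 6 compared libraries alone edgeR called 10 endothelial, 19 respiratory chain and 6 glycolysis genes lower. It called 2 endothelial, 4 neuronal and 2 glycolysis genes higher there. Without both WT library 1 and dnTGFB library 3 the lower calls in the first 3 of these lists were 16, 26 and 10. In that fit all 13 mitochondrially encoded genes were called higher, with 2 endothelial, 4 neuronal and 3 glycolysis genes.

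The female WT groups of the series, 3 libraries each with the same ages and dose, were not tested, and their values are given in CPM of the library total. Female WT secretin libraries 2 and 3 went against their labels: Ddx3y was at 64.3 and 59.1 CPM there, against 2.81 CPM in library 1 and 1.36, 4.01 and 3.64 CPM in female WT. Heart muscle genes summed to 64174 and 72919 CPM in these 2 libraries, against 1085 CPM in library 1. Cxcl10 was at 277, 74.5 and 529 CPM in female WT and at 444, 9.35 and 24.1 CPM in female WT secretin, with overlap. Ppbp was at 45.8, 55.5 and 44.3 CPM in female WT and at 2.22, 6.13 and 1.78 CPM in female WT secretin, lower in all 3 as in males. The platelet list as a whole summed to 389, 432 and 537 CPM in female WT and 450, 54.6 and 55.8 CPM in female WT secretin. Library 1 of the latter thus lay within the female WT range. Cd209a was at 1.46, 0.154 and 0.506 CPM against 6.73, 0.644 and 1.17 CPM, with overlap. Acinar genes were high in untreated females, with a summed level of 1369, 1887 and 1502 CPM in female WT and 296, 10.7 and 20.8 CPM in female WT secretin.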

How the data were processed

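The authors deposited raw read counts per gene, 1 table of 49315 Ensembl genes per library, and per the labels' protocols the libraries were poly(A)-selected. Which aligner and counter the authors ran, and whether strand was used, is not given in the sources, so reads of overlapping, antisense or near-identical genes (Hspa1a and Hspa1b, Lyz1 and Lyz2, Ifit3 and Ifit3b, the Mup and trypsinogen genes) may be divided between them. Of the identifiers, 49056 were in GENCODE M21 (GRCm38), and the others held at most 0.0204% of a library.

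Counts of the 12 male libraries were fitted together in edgeR 4.0.16 (R 4.3.3) with TMM scaling, filterByExpr by group and the robust quasi-likelihood F test. The contrast was male WT secretin minus male WT, and a call was a Benjamini-Hochberg adjusted p under 0.05 over all tested genes, with no fold threshold. SEs were derived from the log2 fold change and F (its absolute value over the root of F). Sums of gene lists and female levels are CPM of the library total, not TMM-scaled. Alternatives were DESeq2 1.42.0, limma-voom (limma 3.58.1), other scalings and filters, fewer libraries, a replicate block, and each library left out in turn. On simulated counts of 18777 genes for this comparison the test recovered 26% of 2-fold increases, 30% of 2-fold decreases, and 80% and 78% of 4-fold increases and decreases.

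The comparison, the 51 gene lists and the tests were chosen with earlier results of these data known. Genes were named by rule: the 12 largest increases and decreases among protein-coding genes called with all libraries and without WT library 1, without overlap and averaging 10 CPM or more in the higher group; a fixed set of secretin axis, biliary, chemokine and sex-linked genes; and, per list, up to 4 members called in both of these fits and all members of counts of 5 or fewer. Rsad2, Ifit2, Ifit3, Ifit3b, Cmpk2, Fscn1, Hspe1, Amy2a5 and Cela3a were named outside the rule, after their values were seen. Not every gene that the rule selected is reported here.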

Additional observations from a re-analysis of the deposited data

Results flagged for a closer look

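For 7 of the genes described above, the male and female WT groups moved in opposite directions: all 3 male secretin libraries were above all 3 male WT libraries, and all 3 female secretin libraries were below all 3 female WT libraries. The female log2 ratio of mean CPM of the library total, secretin over WT, was -5.33 for A1bg. Among the acinar genes it was -4.72 for Cpb1, -4.34 for Cela2a, -4.34 for Prss2, -4.62 for Cel, -4.86 for Cpa1 and -4.09 for Pnlip. The difference was not tested. Female WT secretin libraries 2 and 3 are the libraries whose heart muscle and Y-linked levels go against their labels.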

How the results depend on the processing

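The counts of called genes depended on how the spread was estimated. Against 666 higher and 502 lower genes, DESeq2 called 1690 and 1428, and limma-voom 1460 and 1040. With the 6 male WT libraries alone edgeR called 2324 and 2604, without WT library 1 and dnTGFB library 3 it called 3811 and 3956, and with the 5 libraries left without WT library 1 alone 3939 and 3998. Library totals left 210 lower genes and the absence of a low-count filter 313. With each library left out in turn, 221 to 667 genes were higher and 111 to 407 lower. In these fits all groups share 1 estimate of the spread. The fit with a replicate block called 427 higher and 271 lower genes, 695 of them among the 1168. Replicate numbers did not pair the libraries: same-numbered deviations correlated at r = -0.001, 0.002 and -0.015. DESeq2 size factors, the removal of mitochondrially encoded genes and a stricter filter kept both counts within 1.5 times.

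None of the 137 named genes changed direction in any of 17 settings. Many were named because they were called with all libraries and without WT library 1, and all settings draw on the same libraries. A kept direction was thus largely fixed by the choice of genes. Of these genes, 136 kept their side of the threshold with DESeq2, 131 with limma-voom, 130 with the 6 compared libraries alone, 106 with library totals, 113 without WT library 1, 106 under the replicate block, and 71 to 79 without another single library. Under library totals the list median of biliary identity, MHC class I, interferon ligands and receptors, bile acid transport, Notch and YAP, angiogenic and glycolysis genes changed sign.

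With 1 pool of mice per group, no setting measures the spread between mice. The depth of 16890529 to 30203330 counts gives the abundant genes little counting error, whereas Sct, at under 1 CPM, was near the limit of detection.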
